A study of Equus caballus with 6 samples.

Results

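The interleukin-6 family cytokines and the JAK-STAT3 signalling genes they act through were measured in lamellar hoof tissue, the interlocked epidermis and dermis that holds the hoof wall to the distal phalanx of the horse. The members were fixed by name as 10 genes: the cytokines IL6, LIF, OSM and CSF3, the shared receptor subunit IL6ST, the kinase JAK1, the transcription factor STAT3, and the feedback inhibitors SOCS2, SOCS3 and CISH. A probe set, the group of short probes on the chip that together give a single signal, was counted as a member where the platform annotation gave it exactly 1 gene symbol and that symbol was 1 of the 10. This found 9 of the 9155 genes named on the chip, with 11 of its 24016 probe sets besides the controls. STAT3 and SOCS3 had 2 probe sets each, 7 genes had 1, and IL6ST had 0 and is not analysed here. Right-foot RNA of 3 samples with laminitis (replicates 1, 3 and 4, labelled as diseased) and of 3 normal samples (replicates 2, 3 and 4) was hybridised to Affymetrix bovine arrays, 1 per sample. How laminitis arose, its stage, the animals' age and breed, and whether the 6 samples are 6 horses are not given in the sources used here, so the p-values measure only how these samples vary, and that variation may be technical.

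As background, interleukin-6 binds a receptor of its own and then recruits gp130, the protein of IL6ST, which brings Janus kinases such as JAK1 together. The kinases phosphorylate STAT3, which enters the nucleus as a dimer and switches on acute-phase and growth genes, among them SOCS3, whose product shuts the receptor down again. CSF3 (G-CSF) uses a receptor of a similar build and drives the making and release of neutrophils. CISH and SOCS2 are better known as targets of STAT5. The activity of STAT3 depends on phosphorylation, which an array does not measure.

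All values are deposited signals on a linear scale. The chip's probes are bovine and the RNA is equine, so the members' levels are not ranked against each other, and a dim probe set may be a poorly matched one. The median probe set of an array lay between 86.7 and 96.6. Testing was limited to probe sets above the median of their array on at least 3 of the 6 arrays. Of the 11 member probe sets 8 met this, 1 for each of LIF, OSM, CSF3, STAT3, SOCS2, SOCS3, JAK1 and CISH. The IL6 probe set, 1 of SOCS3 and 1 of STAT3 did not, and they are described by their values, with fits that take in every probe set. Detection calls were not used here. Of the 11 probe sets 6 come from RefSeq mRNA entries of the annotation (IL6, LIF, OSM, CSF3, SOCS2 and 1 probe set of SOCS3) and 5 from expressed sequence tags.

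All laminitis arrays exceeded all normal arrays on 3 of the 11 member probe sets, 1 each of IL6, SOCS3 and STAT3. This held for 6.32% of all 24016 probe sets. The margin on the SOCS3 probe set was small (17.2 against 17.1), and the other probe sets of SOCS3 and STAT3 overlapped. Of the 8 tested probe sets 0 passed the test. Limma, with p adjusted by Benjamini-Hochberg over the 12519 probe sets tested, gave adjusted p from 0.430 to 0.992 for the 8. The same test called 0 of the 12519 (a background of 0%), the smallest adjusted p being 0.101. At an unadjusted p under 0.05 limma gave 1226 probe sets, or 9.79% of those tested (4.82% higher in laminitis and 4.97% lower), and 1 of the 8 members, STAT3, which was higher. In the fit without the filter 7.46% of all probe sets had an unadjusted p under 0.05, and so did 3 of the 11 members, IL6, STAT3 and SOCS3. Of the 8 members 4 had a positive and 4 a negative log2 difference, laminitis minus normal, with a median of 0.19, while over all tested probe sets 43.7% were positive and the median was -0.056.

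**Figure D1:**
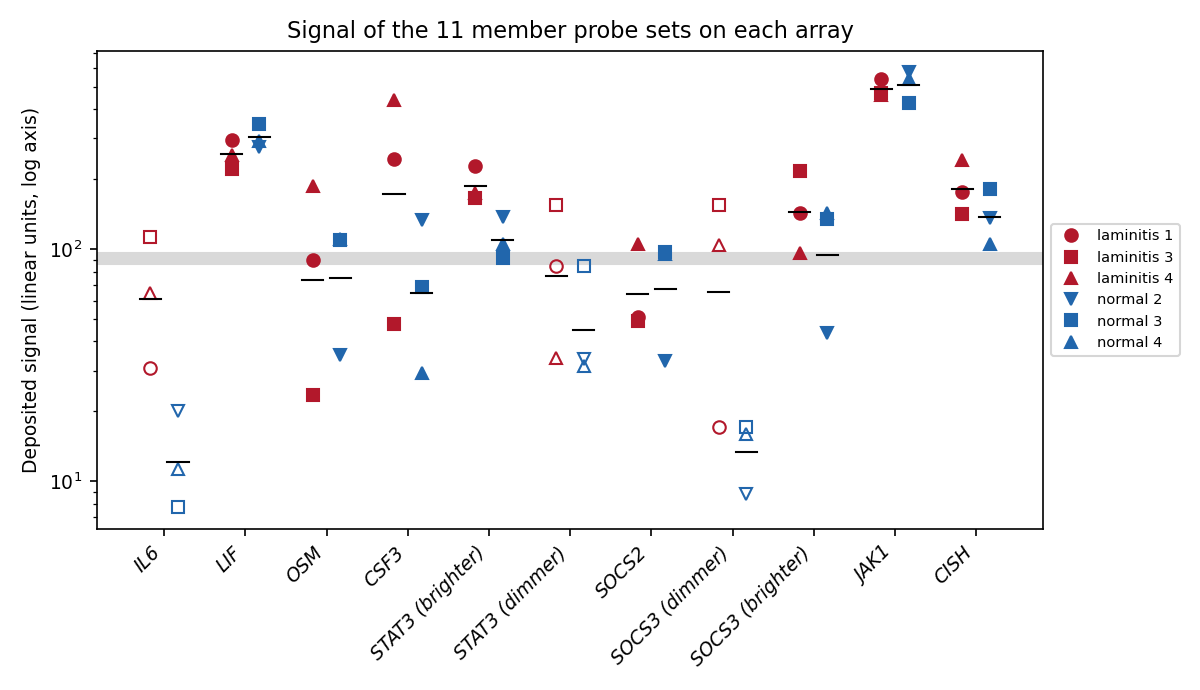
Deposited signal (vertical log axis) of each of the 11 member probe sets on the 6 arrays, with laminitis in red and normal in blue, the marker shape giving the replicate, open markers for probe sets under the brightness filter, bars for geometric means and a grey band for the range of the array medians, 86.7 to 96.6. The groups are apart for IL6, the brighter STAT3 probe set and, by a small margin, the dimmer SOCS3 probe set, and they overlap for the other 8.

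Among the ligands, IL6 had the largest log2 difference over all 6 arrays, though CSF3 exceeded it with 64 added to every signal (0.94 against 0.75) and without laminitis replicate 3 (2.35 against 1.89). IL6, the founding member of the family and an inducer of acute-phase proteins, read 30.6, 113 and 64.8 on laminitis replicates 1, 3 and 4. On normal replicates 2, 3 and 4 it read 20.0, 7.76 and 11.3. All laminitis values lay above all normal values, but only laminitis replicate 3 lay above the median of its array, and on the normal arrays the probe set sat between percentiles 3.99 and 16.7 of all probe sets. The geometric mean was 5.04-fold higher in laminitis, a log2 difference of 2.33 ± 0.57 (SE, n = 3 per group, 95% interval 0.96 to 3.71) in the fit without the filter. That fit gave an unadjusted p of 0.00553 and an adjusted p of 0.496 over all 24016 probe sets in limma. With 64 added to every signal before log2 the IL6 difference shrank to 0.75, so its size rests on values well below the array median. Groups that were apart with laminitis above were found in 6.32% of all 24016 probe sets and in 3 of the 11 members, and groups apart with laminitis below in 8.32% and in 0 members. Among probe sets under the filter these shares were 4.62% above and 7.65% below, and of the 3 members there, 2 were apart above and 0 below.

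CSF3, which directs neutrophil production, was high on some laminitis arrays and low on another. It read 245, 47.4 and 440 on laminitis replicates 1, 3 and 4 and 134, 68.5 and 29.3 on normal replicates 2, 3 and 4. Laminitis replicates 1 and 4 lay above every normal array, while laminitis replicate 3 lay below normal replicates 2 and 3, so the groups overlapped. The log2 difference was 1.42 ± 0.89 (SE, n = 3 per group, limma adjusted p 0.635), a 2.67-fold higher geometric mean with a 95% interval of the log2 difference from -0.68 to 3.51. Without laminitis replicate 3 the difference was 2.35, without laminitis replicate 4 it was 0.74, and without laminitis replicate 4 and normal replicate 4 together it was 0.17. The spread of CSF3 within groups, an SD of 1.41 on the log2 scale, was at percentile 97.3 of all probe sets.

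OSM, oncostatin M, a product of myeloid cells that acts on epithelium and fibroblasts, did not separate the groups. It read 89.3, 23.5 and 187 on laminitis replicates 1, 3 and 4 and 34.9, 110 and 110 on normal replicates 2, 3 and 4. The highest and the lowest OSM values were both laminitis arrays, replicates 4 and 3. The log2 difference was -0.034 ± 0.80 (SE, limma adjusted p 0.992), with a 95% interval from -1.92 to 1.86 that leaves room for a change of either sign, and its sign turned after quantile normalization, after centring on the median and with 64 added.

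LIF, leukaemia inhibitory factor, was steady across all arrays. It read 295, 221 and 255 on laminitis replicates 1, 3 and 4 and 276, 348 and 291 on normal replicates 2, 3 and 4. The values overlapped, and on every array the probe set was between percentiles 78.1 and 88.5. The log2 difference was -0.25 ± 0.21 (SE, limma adjusted p 0.726), with a 95% interval from -0.74 to 0.24.

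Downstream of the receptor, JAK1 was nearly level. JAK1, the kinase bound to gp130, read 541, 473 and 460 on laminitis replicates 1, 3 and 4 and 577, 428 and 539 on normal replicates 2, 3 and 4. Its values overlapped fully, never below percentile 92.1 of an array. The log2 difference was -0.058 ± 0.20 (SE, limma adjusted p 0.942, 95% interval -0.54 to 0.42), and it was 0.025 after centring each array on its median.

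STAT3 was the tested member of smallest p. Its brighter probe set read 228, 165 and 174 on laminitis replicates 1, 3 and 4 and 138, 91.3 and 105 on normal replicates 2, 3 and 4. Every laminitis value lay above every normal value, as for 7.89% of tested probe sets, while 8.92% were apart the other way. The geometric mean was 1.70-fold higher in laminitis, a log2 difference of 0.77 ± 0.24 (SE, n = 3 per group, 95% interval 0.20 to 1.34), with an unadjusted p of 0.0152 and a limma adjusted p of 0.430. With 1 array left out the difference stayed between 0.63 and 0.93, and it was 0.53 with 64 added. The dimmer STAT3 probe set had nearly the same difference, 0.77, but with overlapping groups. It read 85.0, 154 and 33.9 on laminitis replicates 1, 3 and 4 and 33.8, 84.3 and 31.3 on normal replicates 2, 3 and 4. Its SE without the filter was 0.65, its unadjusted p 0.278 and its limma adjusted p 0.792, and the difference was 0.26 without laminitis replicate 3 and 1.36 without laminitis replicate 4.

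**Figure D2:**
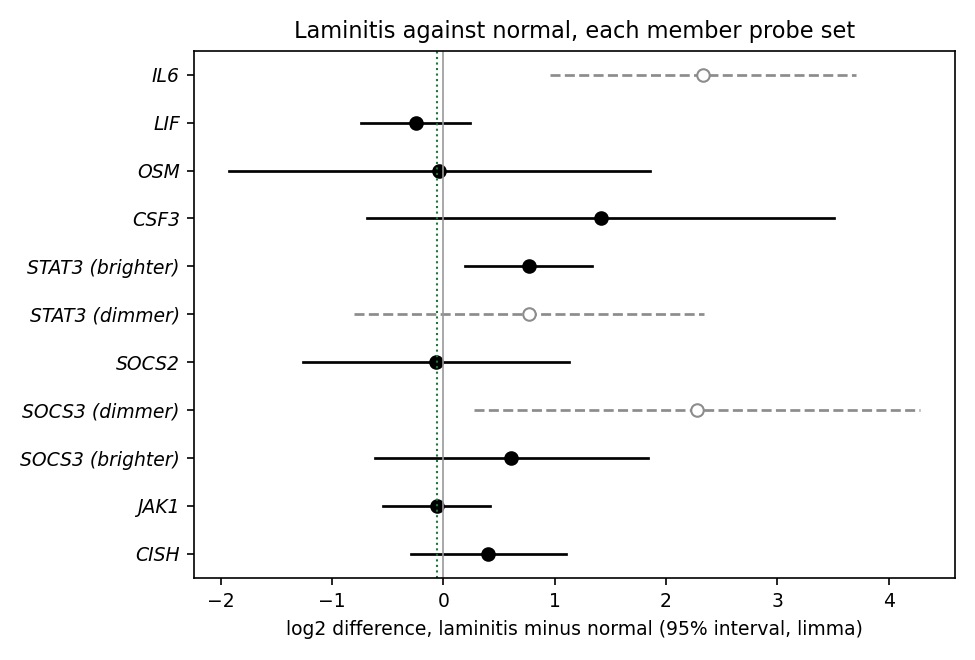
The log2 difference, laminitis minus normal (horizontal axis), of each member probe set with limma's 95% interval, solid and filled for the 8 tested and dashed and open for the 3 under the filter, beside 0 (grey line) and the median of all tested probe sets at -0.056 (dotted green line). The intervals of IL6, the brighter STAT3 and the dimmer SOCS3 probe set lie above 0 without adjustment for the number of probe sets, and those of the other 8 take in 0.

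SOCS3, the feedback inhibitor that STAT3 induces, gave unlike readings on its probe sets. The dimmer, RefSeq-derived one read 17.2, 155 and 104 on laminitis replicates 1, 3 and 4 and 8.85, 17.1 and 15.9 on normal replicates 2, 3 and 4. Laminitis replicates 3 and 4 stood well above the normal arrays, whereas laminitis replicate 1 was level with normal replicate 3. The log2 difference was 2.28 ± 0.83 (SE without the filter, n = 3 per group, 95% interval 0.28 to 4.28), or 4.86-fold, with an unadjusted p of 0.0314 and a limma adjusted p of 0.639. It was 3.24 without laminitis replicate 1, 1.66 without laminitis replicate 3 and 0.89 with 64 added.

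The other SOCS3 probe set was brighter and passed the filter. It read 143, 217 and 96.6 on laminitis replicates 1, 3 and 4 and 43.7, 135 and 142 on normal replicates 2, 3 and 4. Laminitis replicate 3 was the highest array on both SOCS3 probe sets and normal replicate 2 the lowest on both, but laminitis replicate 4 lay above all normal arrays on the dimmer and above only normal replicate 2 on the brighter. The log2 difference of the brighter probe set was 0.61 ± 0.52 (SE, limma adjusted p 0.731, 95% interval -0.62 to 1.84). Without normal replicate 2 it was 0.057.

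CISH and SOCS2, inhibitors of the same family, overlapped between groups. CISH read 177, 142 and 241 on laminitis replicates 1, 3 and 4 and 137, 182 and 105 on normal replicates 2, 3 and 4, a log2 difference of 0.41 ± 0.29 (SE, limma adjusted p 0.680, 95% interval -0.29 to 1.10). Without laminitis replicate 4 and normal replicate 4 the CISH difference was 0.0091. SOCS2, also a brake on growth hormone signalling, read 51.1, 49.2 and 106 on laminitis replicates 1, 3 and 4 and 32.9, 96.9 and 95.7 on normal replicates 2, 3 and 4. Its log2 difference was -0.066 ± 0.50 (SE, limma adjusted p 0.977, 95% interval -1.26 to 1.13), and the sign turned after quantile normalization and after centring on the median.

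The members peaked on different arrays. Laminitis replicate 3 was the highest array for 4 of 11 probe sets, as it was for 14.9% of all 24016, namely IL6, both SOCS3 probe sets and the dimmer STAT3 one. Laminitis replicate 4 was the highest for another 4, as for 16.7% of all probe sets, namely CSF3, OSM, SOCS2 and CISH, and on each of these laminitis replicate 3 was the lowest of the laminitis arrays. The brighter STAT3 probe set peaked on laminitis replicate 1, JAK1 on normal replicate 2 and LIF on normal replicate 3. These are descriptions of single arrays with no test.

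**Figure D3:**
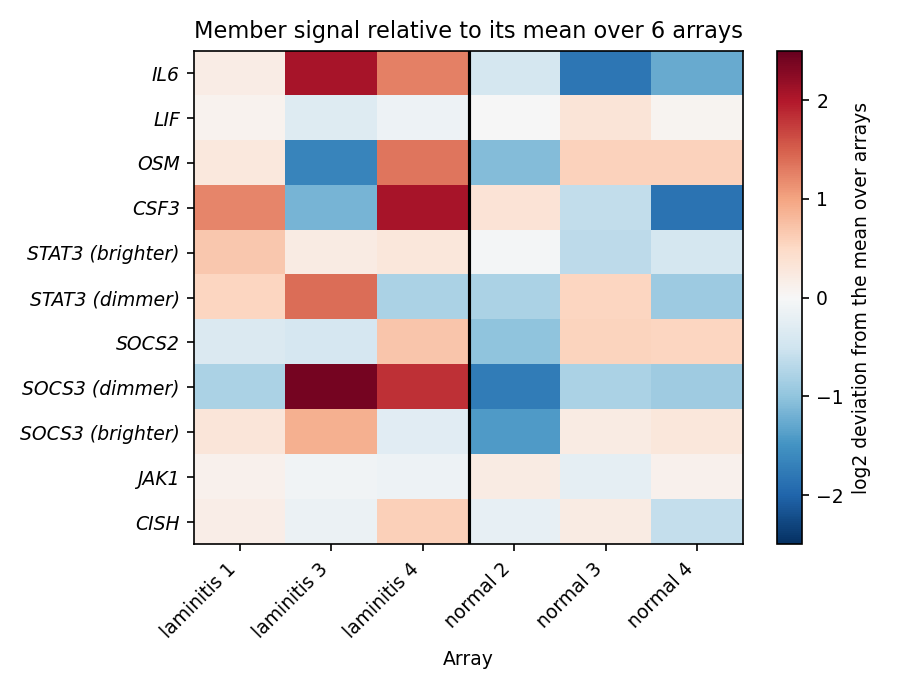
Colour scale of the log2 deviation of each member probe set (rows) from its mean over the 6 arrays (columns), laminitis left of the black line. IL6 and the dimmer SOCS3 probe set are at 2.06 and 2.39 on laminitis replicate 3, where CSF3 and OSM are at -1.15 and -1.66, and CSF3 and OSM are at 2.06 and 1.34 on laminitis replicate 4.

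Marker genes of the cell types in the tissue were set beside these values. The signals of 6 of 9 listed neutrophil markers with a probe set summed to 13020, 9917 and 1520 on laminitis replicates 1, 3 and 4 and to between 558 and 1021 on the normal arrays. On the laminitis arrays most of that sum was S100A8 and S100A9, which keratinocytes can also make. ELANE, MPO and CAMP, whose proteins fill neutrophil granules, were lower on every laminitis array than on every normal array. CAMP, at 9.89 to 31.4, lay below the median of every array, as did LTF, whose groups overlapped. Whether RNA of these genes follows the number of neutrophils in this tissue was not tested. Without S100A8 and S100A9 the sums over 4 markers were 255 to 269 in laminitis and 390 to 423 in normal tissue. Among the laminitis arrays, CSF3, OSM, SOCS2 and CISH were highest on replicate 4, and the brighter STAT3 probe set, JAK1 and LIF on replicate 1. IL6, both SOCS3 probe sets and the dimmer STAT3 one were highest on replicate 3. The full neutrophil sum was lowest on replicate 4 and highest on replicate 1. Without S100A8 and S100A9 it was nearly level, at 263, 269 and 255 on laminitis replicates 1, 3 and 4. Sums over 7 of 9 monocyte and macrophage markers ran from 799.6 to 1020 in laminitis and from 788 to 797 in normal tissue. Without CYBB, which read 233 to 265 in laminitis and 37.4 to 107 in normal tissue, they ran from 544 to 756 and from 690 to 752, and CSF1R was lower on every laminitis array. Sums over 7 of 7 T cell markers ran from 1139 to 1346 in laminitis and from 1289 to 1462 in normal tissue. Of these, CD2 was lower on every laminitis array (64.2 to 177 against 188 to 259). CD4 was higher (216 to 232 against 157 to 211), and the other T cell markers overlapped. Endothelial sums (6 of 6 markers) ran from 503 to 675 in laminitis and from 598 to 728 in normal tissue, and each marker overlapped. Smooth muscle sums (5 of 5) ran from 2305 to 3685 in laminitis and from 3357 to 4149 in normal tissue. TAGLN was lower on every laminitis array, at 721 to 1747 against 1767 to 2322, and the other smooth muscle markers overlapped. Fibroblast sums (6 of 6) were highest on laminitis replicate 4 and normal replicate 4, at 28688 and 28083, against 7041 to 12802 on the other arrays. Without COL1A1 and COL1A2 they ran from 2506 to 5022 in laminitis and from 4103 to 8940 in normal tissue. Of these markers, DCN was lower on every laminitis array, at 724 to 1199 against 1685 to 4898. PDGFRA was higher on every laminitis array, at 285 to 319 against 210 to 279, and the other fibroblast markers overlapped. Such sums weight bright probe sets most. The 6 of 9 keratinocyte markers with a probe set each lay above the array median on at least 3 arrays, and they summed to between 1627 and 2857 in laminitis and between 1136 and 1989 in normal tissue. No marker was at 0; the lowest value was 6.77. The part of these cell types in the members' values was not tested, and in whole tissue fewer cells of a type and less RNA per cell cannot be told apart.

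Other genes of the pathway were read from 4 lists of 67 genes, of which 42 had a probe set and 30 were bright enough to test. The tested probe set of highest mean stood for its gene. Of the 30, 0 passed in limma over all tested probe sets in either direction, where 0% of all 6151 tested genes did. The groups were apart for 12 of the 30, against 17.1% of all tested genes in either direction. The lists were drawn up with earlier results of these data known, so their counts are descriptions.

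Of 15 other ligands and receptors 5 had a probe set and 3 were tested, 1 with a positive and 2 with a negative difference (median -0.070, against -0.029 over all tested genes). OSMR, the receptor chain that pairs with gp130 to bind oncostatin M, read 401, 359 and 263 on laminitis replicates 1, 3 and 4 and 467, 439 and 477 on normal replicates 2, 3 and 4. Every laminitis array was below every normal array, as for 8.36% of tested genes, with a log2 difference of -0.46 ± 0.22 (SE, limma adjusted p 0.561), or -0.28 without laminitis replicate 4. The 3 other OSMR probe sets had differences of -1.16, -0.63 and -0.050, and the groups were apart on the one at -0.63. IL6R, the receptor specific to IL-6, had -0.070 ± 0.23 (SE, limma adjusted p 0.938), with 0.012 after centring on the median and 0.0048 after quantile normalization, and LEPR, the leptin receptor, had 0.17 ± 0.24 (SE, limma adjusted p 0.837), or 0.031 without laminitis replicate 4.

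Of 9 other Janus kinases and STATs 4 had a probe set and 3 were tested, 1 positive and 2 negative, with a median of -0.27. STAT5B, which carries growth hormone and prolactin signals, read 366, 438 and 442 on laminitis replicates 1, 3 and 4 and 297, 296 and 305 on normal replicates 2, 3 and 4. The STAT5B groups were apart, as for 8.70% of tested genes with laminitis above, and its log2 difference was 0.47 ± 0.18 (SE, 1.38-fold, limma adjusted p 0.494). STAT2, a mediator of type I interferon signals, had -0.44 ± 0.20 (SE, limma adjusted p 0.534) with the groups apart the other way, as for 8.36% of tested genes. STAT6, which acts for IL-4, had -0.27 ± 0.32 (SE, limma adjusted p 0.810).

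Of 15 other inhibitors and adaptors 8 had a probe set and 6 were tested, 3 positive and 3 negative (median -0.0059). PTPN6, the phosphatase SHP-1 of blood cells, read 114, 128 and 128 on laminitis replicates 1, 3 and 4 and 260, 180 and 210 on normal replicates 2, 3 and 4. All laminitis values lay below all normal ones, as for 8.36% of tested genes, with a log2 difference of -0.80 ± 0.21 (SE, limma adjusted p 0.350) and -0.57 with 64 added. PTPN1, a phosphatase that acts on Janus kinases, had 0.34 ± 0.18 (SE, limma adjusted p 0.597) with the groups apart above, as for 8.70% of tested genes. SOCS5 had -0.30 ± 0.24 and PIAS1 had 0.22 ± 0.20 (SE), with limma adjusted p of 0.717 and 0.745, and they had -0.10 without laminitis replicate 3 and 0.10 without normal replicate 3.

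Of 28 genes known to be induced through STAT3, though most also by other routes, 25 had a probe set and 18 were tested. Of these 13 had a positive and 5 a negative difference, with a median of 0.13 against -0.029 over all tested genes, of which 46.4% were positive. The groups were apart for 7 of the 18, 5 above and 2 below, where 17.1% of all tested genes were apart in either direction, 8.70% of them above. At an unadjusted p under 0.05 limma gave 4 of the 18, all higher, against 5.27% of all tested genes in that direction. The list was drawn up with earlier results of these data known, so these counts describe it and are no test of enrichment.

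CEBPB, a transcription factor of the acute-phase response, read 324, 453 and 158 on laminitis replicates 1, 3 and 4 and 130, 146 and 58.9 on normal replicates 2, 3 and 4. Laminitis replicate 4 was just above the highest normal array, and the log2 difference was 1.46 ± 0.49 (SE, 2.74-fold, limma adjusted p 0.455). Another CEBPB probe set had a difference of 2.01, whereas CEBPD, its close relative, had -0.48 ± 0.35 (SE, limma adjusted p 0.683). HIF1A, the oxygen-regulated transcription factor, read 10442, 7273 and 5909 on laminitis replicates 1, 3 and 4 and 3684, 3332 and 4347 on normal replicates 2, 3 and 4. Its log2 difference was 1.02 ± 0.26 (SE, 2.03-fold, limma adjusted p 0.345) with the groups apart, and 0.62 after quantile normalization.

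FOS and SAA3 completed the 4 genes of smallest p in this list. FOS, an immediate early gene, read 2593, 1443 and 1969 on laminitis replicates 1, 3 and 4 against 393, 294 and 495 on normal replicates 2, 3 and 4, and its log2 difference of 2.34 had a limma adjusted p of 0.131, while a dimmer FOS probe set had -0.017. SAA3, an acute-phase serum amyloid, read 775, 700.1 and 295 on laminitis replicates 1, 3 and 4 against 216, 209 and 165 on normal replicates 2, 3 and 4, and its log2 difference of 1.48 had a limma adjusted p of 0.345. CRP, C-reactive protein, was the fifth gene with the groups apart above, at 0.54 ± 0.37 (SE). VEGFA, PIM1 and TIMP1 had 0.64 ± 0.33, 0.53 ± 0.25 and 0.36 ± 0.42 (SE) with overlapping groups. Of genes near 0, MYC had 0.024 ± 0.23, JUNB 0.059 ± 0.21, ICAM1 0.033 ± 0.25 and CCND1 0.047 ± 0.32 (SE). BCL3 and BIRC5, at -0.45 ± 0.26 and -0.52 ± 0.24 (SE), were those with the groups apart below.

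**Figure D4:**
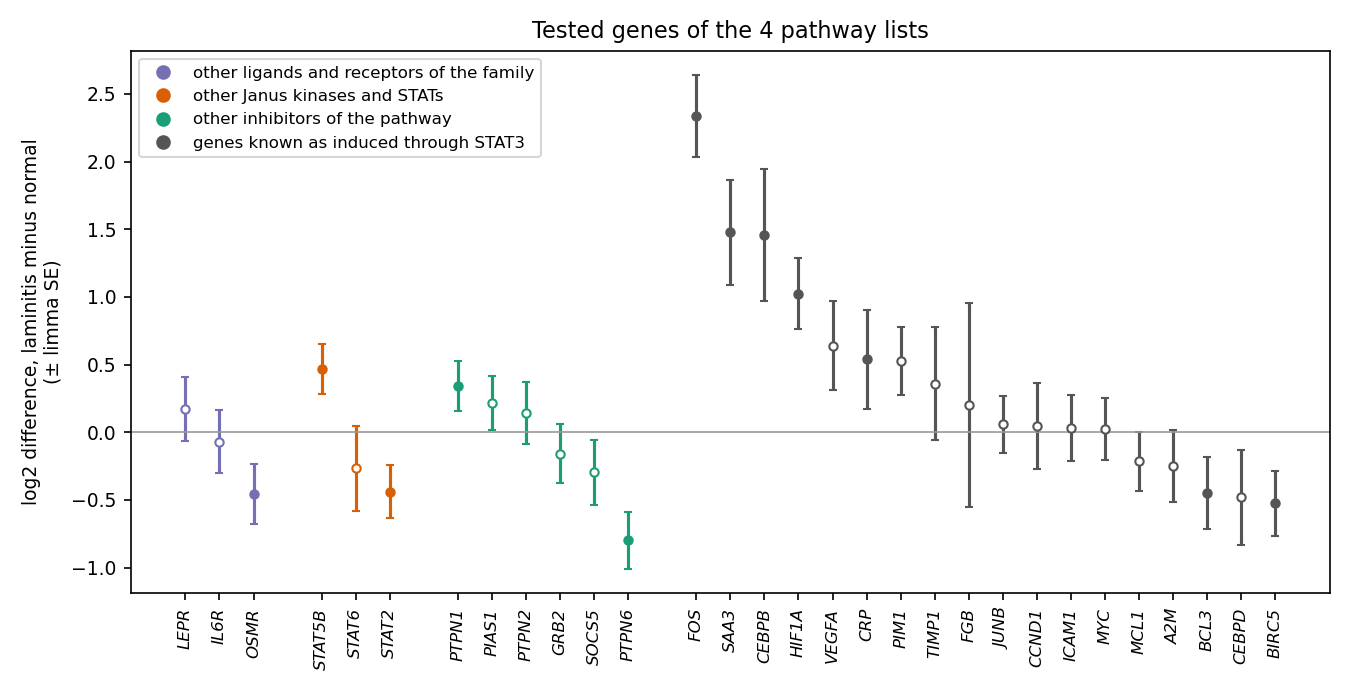
The log2 difference, laminitis minus normal, with limma's SE, of the 30 tested genes in the 4 pathway lists, filled where the groups did not overlap and open where they did. FOS, SAA3, CEBPB and HIF1A lie between 1.02 and 2.34 and PTPN6 lowest at -0.80, and 0 of the 30 passed over all tested probe sets.

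The genes whose profile over the 6 arrays was nearest to that of the brighter STAT3 probe set were sought among the other 6150 tested genes, by the root mean square difference of log2 values centred on each gene's mean. ACKR3, an atypical chemokine receptor, was nearest at 0.075, followed by KCNE1, a potassium channel subunit, at 0.12, ECM1, an extracellular matrix protein of skin, at 0.14, UBTD1 at 0.14 and FTH1, ferritin heavy chain, at 0.14. ACKR3 read 186, 135 and 149 on laminitis replicates 1, 3 and 4 and 129, 84.2 and 91.9 on normal replicates 2, 3 and 4, in the same order of arrays as STAT3. The log2 differences of these nearest genes ran from 0.58 for FTH1 to 0.79 for UBTD1. The genes were chosen for likeness to STAT3 over all 6 arrays, so a similar array order and difference come with the choice.

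**Figure D5:**
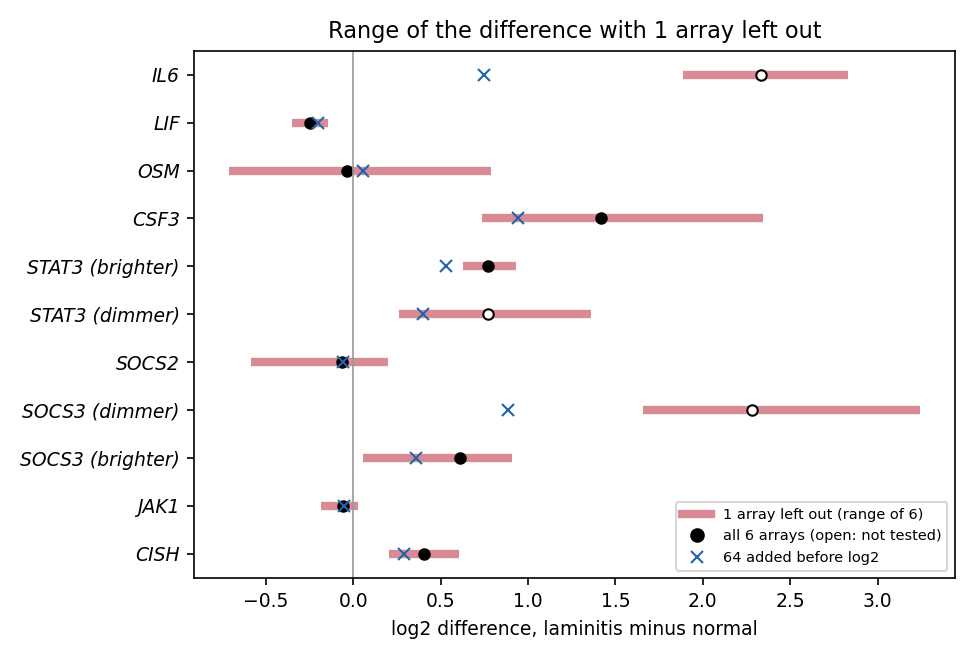
The log2 difference of each member probe set over all 6 arrays (circle, open where not tested), its range with 1 array left out (red bar) and its value with 64 added before log2 (blue cross). The bars of OSM, SOCS2 and JAK1 cross 0, those of the other 8 do not, and the crosses of IL6, the dimmer SOCS3 and the brighter STAT3 probe set, at 0.75, 0.89 and 0.53, lie below their bars.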

How the data were processed

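Array signals of 3 laminitis and 3 normal samples, grouped by the sample titles, were taken from the deposited value table. The deposited values are linear intensities whose mean after trimming 2% at each end is 150.02 to 150.03 on every array. The submitters' processing notes name GCRMA, which yields log2 values and not such a scale, so the step behind the values stays unknown. A single scaling factor, if that was the step, leaves differences between arrays that vary with brightness.

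The 112 control probe sets were left out. Gene symbols are those of the platform annotation in GEO and may be out of date; 13292 probe sets had 1 symbol, 86 several and 10638 none. All 10 member symbols are also horse RefSeq symbols (TB-T2T). Log2 values, with no offset, were fitted with lmFit and eBayes in limma 3.58.1 (R 4.3.3), with two-sided p adjusted by Benjamini-Hochberg over the probe sets tested, a threshold of 0.05 and 3.02 prior degrees of freedom. Folds are of geometric means. The script was tested on simulated data. The motif search planned for promoters was not run. Named genes are all members, the 4 pathway genes of smallest p per list and the 5 nearest profiles. CEBPD, CRP, VEGFA, PIM1, TIMP1, MYC, JUNB, ICAM1, CCND1, BCL3, BIRC5 and BCL2L1 were added after their values were seen. FGG, HP, LBP and IL10, from the genes under the filter, are likewise named outside that rule. Members and lists were chosen with earlier results of these data known.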

Additional observations from a re-analysis of the deposited data

How the results depend on the processing

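Of the 8 tested member probe sets 0 passed the threshold in limma under any of the 16 alternatives, with OSM and SOCS2 not tested under the filter on the mean. IL6 and the dimmer STAT3 and SOCS3 probe sets were tested only with no filter, where they did not pass, and in the other alternatives they have values without a test. Over all probe sets 4 passed as higher with an intensity trend and robust variance (FOS, CCL2, PNRC1 and ZFAND5, each at a limma adjusted p of 0.0435), and with 1 array left out 0 to 2 passed, the 2 being CFB and SLC25A28 without laminitis replicate 4; the cause was not tested. FOS (log2 difference 2.34) was the pathway gene that passed in an alternative. The log2 difference of OSM turned to 0.064 after quantile normalization, 0.049 after centring and 0.057 with 64 added, and ran from -0.71 to 0.79 with 1 array left out (0.79 without laminitis replicate 3, 0.24 without normal replicate 3 or 4). SOCS2 turned to 0.031 after quantile normalization and 0.017 after centring, and ran from -0.58 to 0.20 with 1 array left out (0.10 without laminitis replicate 1, 0.13 without laminitis replicate 3, 0.20 without normal replicate 3, 0.19 without normal replicate 4). JAK1 turned to 0.025 after centring, 0.030 without normal replicate 2 and 0.026 without both replicates 4, with a range of -0.19 to 0.030. IL6R turned to 0.0048 after quantile normalization, 0.012 after centring, 0.027 without laminitis replicate 1 and 0.054 without normal replicate 3, with a range of -0.22 to 0.054. STAT6 turned to 0.0053 without laminitis replicate 3, with a range of -0.53 to 0.0053. None of these had been called, and the cause was not tested. In all 398 values under alternatives were compared, of which 20 changed sign.

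The labels give replicate numbers 3 and 4 to both groups. Over tested probe sets the deviations of same-numbered samples from their group means correlated at -0.017 for number 3 and -0.031 for number 4. Some genes did go together, as fibroblast sums were highest on both arrays numbered 4 (28688 and 28083). The numbers were not taken as a pairing, and these values cannot show whether same-numbered samples share an origin. With the replicate number as a block 0 probe sets passed as higher and 0 as lower, IL6 had a log2 difference of 3.19 and the brighter SOCS3 probe set 0.062. In that fit laminitis replicate 1 and normal replicate 2 do not bear on the difference, which rests on the arrays numbered 3 and 4. Few degrees of freedom remain there, so the counts of 0 tell little. The number of arrays, 3 per group, limits the precision. The normal signals of IL6 and the dimmer SOCS3 probe set lay far below the array median, and their log2 differences shrank to 0.75 and 0.89 with 64 added.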

Other observations

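Of the pathway lists 12 genes had probe sets under the brightness filter only and were not tested. BCL2L1, the survival factor BCL-XL and a gene known to be induced through STAT3, was the only one of the 12 with the groups apart and laminitis above, as were 4.62% of probe sets under the filter. It read 29.5, 58.0 and 86.0 on laminitis replicates 1, 3 and 4 and 29.0, 24.0 and 20.4 on normal replicates 2, 3 and 4, so laminitis replicate 1 was level with normal replicate 2. Its log2 difference was 1.12 without the filter (unadjusted p 0.0357, limma adjusted p 0.658) and 0.44 with 64 added. FGG, a fibrinogen chain, was apart the other way, with values of 2.80 to 5.48 on all arrays, too dim to read. The acute-phase genes HP and LBP, haptoglobin and the lipopolysaccharide-binding protein, had overlapping groups, with mean signals of 15.4 and 25.5 in laminitis and 18.9 and 42.0 in normal tissue. IL10, an anti-inflammatory cytokine that signals through STAT3, had means of 75.7 and 77.5.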
